A study of Mus musculus with 2 samples.

Results

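The miR-3473 family is a group of mouse miRNAs that share a registry number. Its members here were all mouse miRNA names on the array that begin with miR-3473, which gave 7 of the 1881 miRNAs on the array, miR-3473a to miR-3473g. The family was chosen by the measured brightness of miR-3473b on these arrays, so its level is given as a description only. The data were miRNA signals from exosomes, the small membrane vesicles that cells release, collected from the medium of LLC cells, the Lewis lung carcinoma line of the mouse. A single group held 2 samples, 1 from each of 2 independent experiments. In both, the cells had been exposed for 24 h to 5 µM cisplatin, which forms platinum adducts on DNA, in medium without serum. Each sample was hybridised to its own one-colour array, named array 1 and array 2 here by sample number. No untreated sample was analysed here, so the values show which family members gave a signal and how far the samples differed, not what cisplatin changed. The number of arrays limits the precision of every value, and no p-value was computed.

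A miRNA is cut from a hairpin-shaped precursor and guides a silencing complex to mRNAs, mainly through its seed, bases 2 to 8. miRNAs with the same seed are expected to share many targets. The start of the mouse B2 element, a short repeat copied to very many places in the genome, reads like the mature miR-3473b. For such a miRNA, a sequence alone does not say from which copy the RNA came.

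All 7 members had a mature sequence in RefSeq (GRCm38.p6). They are shown 5′ to 3′ with the seed in capitals, because the seeds divide a family that its name holds together.
miR-3473a: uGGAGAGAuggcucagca
miR-3473b: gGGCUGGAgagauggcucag
miR-3473c: uCUCUCCAgcccccauaauaag
miR-3473d: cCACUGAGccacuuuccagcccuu
miR-3473e: gGGCUGGAgagauggcucgua
miR-3473f: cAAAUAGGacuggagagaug
miR-3473g: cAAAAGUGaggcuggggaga
The 7 members have 6 seeds, and only miR-3473b and miR-3473e share one. The mature forms are 18 bases long in miR-3473a and 24 bases long in miR-3473d, the shortest and the longest. Their GC content runs from 45% in miR-3473f to 65% in miR-3473b.

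The members were also compared with miR-3473b by the longest run of bases they share with it, in capitals below, since this shows which part of the bright member each of them carries.
miR-3473e: GGGCUGGAGAGAUGGCUCgua
miR-3473a: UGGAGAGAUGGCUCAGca
miR-3473f: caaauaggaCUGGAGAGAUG
miR-3473g: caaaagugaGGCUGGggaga
miR-3473e has the first 18 of the 20 bases of miR-3473b and another 3′ end. miR-3473a has bases 5 to 20 of miR-3473b, a run of 16. miR-3473f carries a run of 11 bases at its own 3′ end, and miR-3473g a run of only 6. miR-3473c and miR-3473d read the other way. Their longest runs with miR-3473b are 3 bases long, but miR-3473c pairs with miR-3473b over an unbroken 12 bases and miR-3473d over 8, again in capitals. Matches outside the longest unbroken run were not counted for any member.
miR-3473c: UCUCUCCAGCCCccauaauaag
miR-3473d: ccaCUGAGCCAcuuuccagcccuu
These members thus carry stretches of the complement of miR-3473b rather than of its own sequence.

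The hairpin of miR-3473b is shown because its arms carry both orientations. The mature part is in capitals.
miR-3473b hairpin: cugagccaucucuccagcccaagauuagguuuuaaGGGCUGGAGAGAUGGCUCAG
It is 55 bases long, and its first 20 bases are the exact reverse complement of the 20 mature bases, with 15 bases between them. RefSeq places the mature miR-3473b on the plus strand at chr10:41670774-41670793 (GRCm38.p6), inside the span of the gene Ccdc162. The other 6 lie on the minus strand of other places, within the spans of Syap1 (miR-3473a, chrX:162874920-162874937), Traf5 (miR-3473c, chr1:191998602-191998623), Ddx19b (miR-3473d, chr8:111016498-111016521), Rbks (miR-3473e, chr5:31667296-31667316), Bcl2 (miR-3473f, chr1:106546536-106546555) and Sppl2a (miR-3473g, chr2:126902290-126902309). Whether they lie in an exon or an intron was not analysed here.

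The letters of miR-3473b occurred in more gene promoters than those of any other miRNA on the array that had a sequence. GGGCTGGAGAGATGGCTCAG, searched on both strands, was found in 32 of 32817 RefSeq promoter windows (0.0975%), 10 on the strand of the gene and 22 on the other, each of a different gene. Of the 1608 array miRNAs with a sequence, 1564 matched 0 windows. miR-3471 matched 11, miR-3473a 9 and miR-706 2. The 5 other members of the family matched 0 windows. A match is a description of these letters and not a site of origin or of binding.

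Detection meant at least 1 probe with a total signal over 3 times its error. It was met on both arrays by 201 of the 1881 miRNAs (10.7%). No spot was saturated. The negative-control spots set a limit, their mean plus 3 SD, of 7.44 intensity units on array 1 and 9.27 on array 2. miR-21a-5p and miR-29a-3p were detected on both arrays. Of 12 markers of red cells, leukocytes, hepatocytes, endothelium and epithelium, 0 were detected on both arrays, and 1, the leukocyte miR-142a-3p, on array 1 only. The 3 epithelial markers were thus undetected in vesicles of a carcinoma line. The 4 detected control names that begin with dmr were 0.06 to 0.27 log2 units brighter on array 1. Signals of the other detected controls differed more, by up to 2.83 for hur_6.

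Of the 7 members of the miR-3473 family, 6 passed detection on both arrays, and the same 6 on each array alone. Over all miRNAs the share was 10.7% on both arrays, 16.6% on array 1, 10.7% on array 2 and 16.6% on at least 1 array. miR-3473d was detected on neither. miR-3473b stood far above the negative controls, and miR-3473g and 1 of the probes of miR-3473a stood well above them. miR-3473c, miR-3473f and 1 of the probes of miR-3473e lay near the negative-control limit, and both probes of miR-3473d and the other probe of miR-3473e lay below it. A mean intensity above the negative-control limit on both arrays was reached by 4 members, miR-3473a, miR-3473b, miR-3473f and miR-3473g, against 8.72% of all miRNAs. When most spots had to lie well above background on both arrays, 2 members passed, miR-3473b and miR-3473g, against 4.68% of all miRNAs. With a total over 6 times its error, 3 members passed, miR-3473a, miR-3473b and miR-3473g, against 4.52% of all miRNAs. The brightness of a probe depends on the probe as well as on the RNA, so these signals do not rank the members by amount. miR-3473a and miR-3473e share runs of 16 and 18 bases with the much brighter miR-3473b. Whether their probes also bound miR-3473b was not tested.

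miR-3473b gave a tight signal at both of its probes. At probe 1 the spots had a lowest, median and highest intensity of 1629, 1771 and 1822 on array 1 (14 spots) and of 675, 710.1 and 739.8 on array 2 (14 spots). At probe 2 they were 2117, 2233 and 2323 on array 1 (14 spots) and 779, 876 and 941 on array 2 (15 spots). Every spot of array 1 was brighter than every spot of array 2, at both probes. The SD between spots of a probe was 0.04 to 0.08 log2 units, far below the gap between the arrays. Spots of a probe share 1 sample, so this spread is technical. The log2 signal was 10.95 for array 1 and 9.62 for array 2, a difference of 1.33, with 1.31 at probe 1 and 1.35 at probe 2.

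**Figure D1:**
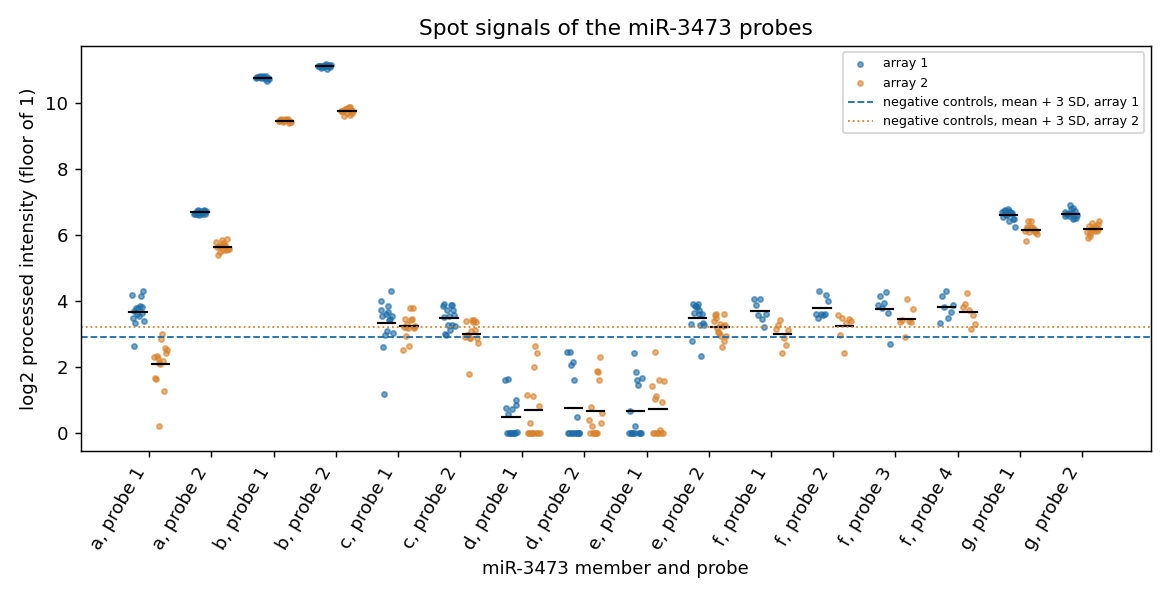
The vertical axis gives log2 processed intensity (intensities under 1 set to 1) of each spot at the 16 probes of the family on the horizontal axis, with array 1 in blue, array 2 in orange, black bars for the means and dashed lines for the negative-control limits. Both probes of miR-3473b sit far above the limits and are clearly separate between arrays, while miR-3473d and probe 1 of miR-3473e stay below the limits.

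miR-3473e has the seed of miR-3473b and its first 18 bases, and its probes gave little signal. Probe 1 was below the negative-control limit at every spot, with a median of 0.369 and a highest value of 5.42 on array 1, and 1.48 and 5.44 on array 2. Probe 2 gave spots of 5.01 to 15.2 on array 1, with a median of 12.1. On array 2 they ran from 6.13 to 12.3, with a median of 9.41. The arrays overlapped at both probes. The total of probe 2 was 3.82 times its error on array 1 and 3.07 times on array 2, so miR-3473e passed on 1 of its 2 probes, and on array 2 it was the member nearest above the threshold of 3. Probe sequences were not analysed here, so which bases each probe covers is not stated.

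miR-3473a, which has the 3′ part of miR-3473b, gave 2 unlike probes. Probe 2 had spots of 98.0 to 109 on array 1 (median 102.6) and of 42.0 to 59.0 on array 2 (median 50.6), and the arrays did not overlap. Probe 1 had a median of 12.9 on array 1 and of 4.85 on array 2, where all 15 spots lay below the negative-control limit. Probe 1 was detected on array 1 at 4.26 times its error and missed on array 2 at 1.58 times. Over both probes the log2 signal came to 5.19 for array 1 and 3.87 for array 2.

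miR-3473g, the member with the shortest same-strand run in common with miR-3473b among the 4 that read its way, gave probes in close accord. Probe 1 had a median of 102.8 on array 1 (76.0 to 112) and of 71.0 on array 2 (57.0 to 85.4), and these ranges overlapped. Probe 2 had a median of 98.9 on array 1 (89.3 to 121) and of 73.2 on array 2 (60.8 to 85.3), with no overlap. All 15 spots of each probe were well above background on both arrays. The log2 signals were 6.64 for array 1 and 6.18 for array 2.

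miR-3473f was measured by 4 probes and miR-3473c by 2, all dim. The medians of the probes of miR-3473f were 12.3 to 14.6 on array 1 and 8.62 to 13.2 on array 2. All 4 were detected on array 1 and 3 on array 2, where probe 1 reached only 2.69 times its error. The probes of miR-3473c had medians of 11.7 and 11.6 on array 1 and of 9.32 and 7.91 on array 2. On array 2 probe 1 passed at 3.15 times its error and probe 2 missed at 2.75 times. The arrays overlapped at all 6 probes of these members. miR-3473d, which reads as the complement, had medians of 0.705 to 1.23 over its 2 probes and both arrays, and its highest spot was 6.24. Its totals were at most 0.483 times their error.

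**Figure D2:**
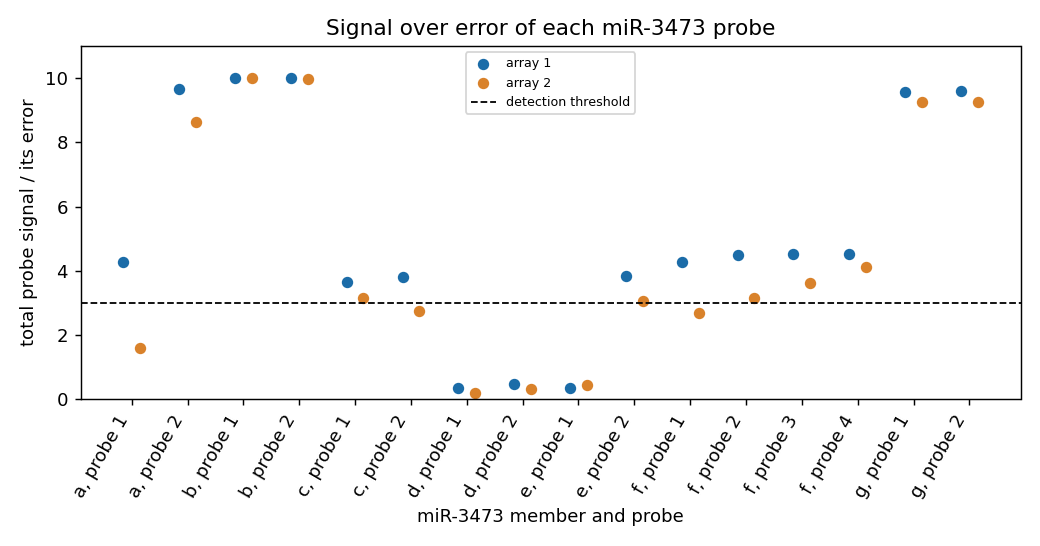
The vertical axis gives the total signal of each probe divided by its error, for the 16 probes of the family on the horizontal axis, on array 1 (blue) and array 2 (orange), with the detection threshold of 3 as a dashed line. miR-3473b and miR-3473g lie between 9.24 and 10.0, whereas miR-3473c, miR-3473f and probe 2 of miR-3473e lie close to the threshold, from 2.69 to 4.53.

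Of the miRNAs outside the family with a member's seed, 1 was detected. Among the array miRNAs with a sequence, 4 had the seed of a member. miR-1947-3p, which shares CACUGAG with miR-3473d, was detected on both arrays, with unscaled log2 signals of 4.02 and 3.59. miR-674-5p, with the same seed, miR-7649-3p, with the seed CUCUCCA of miR-3473c, and miR-882, with the seed GGAGAGA of miR-3473a, were detected on neither array. No miRNA outside the family had the seed of miR-3473b. A single other miRNA had a run of at least 12 bases with miR-3473b or its complement, miR-7667-5p, which pairs with it over 12 bases. It was detected on neither array, with log2 signals of 1.27 and 1.35.

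The bright and the middle member did not differ between the arrays by the same amount. Before scaling, all 6 detected members were brighter on array 1, by a median of 0.44 log2 units, while the median over the 201 detected miRNAs was 0.78 (interquartile range 0.19 to 1.66). Where the family lay against that median depended on how signals were corrected for background and summarised. With the sum of detected probes the medians were 0.98 for the members and 1.05 for all, with normexp background correction 0.18 and 0.20, with the brightest probe 0.37 and 0.78, and with the listed totals 0.65 and 0.58. With the listed totals miR-3473a and miR-3473f were brighter on array 2. By spot means, miR-3473b differed by 1.33 and miR-3473a by 1.31. miR-3473g differed by 0.46, miR-3473f by 0.43, miR-3473c by 0.29 and miR-3473e by 0.10. Larger differences than that of miR-3473b were seen in 32.8% of the 201 miRNAs, and larger ones than that of miR-3473g in 58.7%. The 2 probes of each agreed closely, with 1.31 and 1.35 for miR-3473b against 0.45 and 0.47 for miR-3473g. The difference of miR-3473b exceeded that of miR-3473g by 0.87 log2 units. A shift of a whole array cannot change this excess, and under the 7 other settings that can, it was 0.87 to 1.50. With 1 array for each sample, this gap has no replicate check. The signals of miR-3473c, miR-3473e and miR-3473f lay near the negative-control limit, and the part this played in their differences was not tested. The 1.31 of miR-3473a averages 1.59 at probe 1, whose spots all lay below that limit on array 2, and 1.04 at probe 2. By the sum of detected probes miR-3473c differed by 1.23 and miR-3473a by 1.21, each with 2 probes in the sum on array 1 and 1 on array 2. miR-3473f then differed by 0.75, with 4 probes on array 1 and 3 on array 2, and miR-3473e by 0.31. The median of 0.98 over the members by this sum thus rests on unequal numbers of probes. miR-3473g lay well above the negative-control limit.

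All spots were brighter on array 1 at 4 of the 14 probes of the detected members (28.6%), namely both of miR-3473b, probe 2 of miR-3473a and probe 2 of miR-3473g. Over the 447 probes of all miRNAs detected on both arrays the share was 41.2%, and 0.895% had all spots brighter on array 2, among them 0 of the 14.

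**Figure D3:**
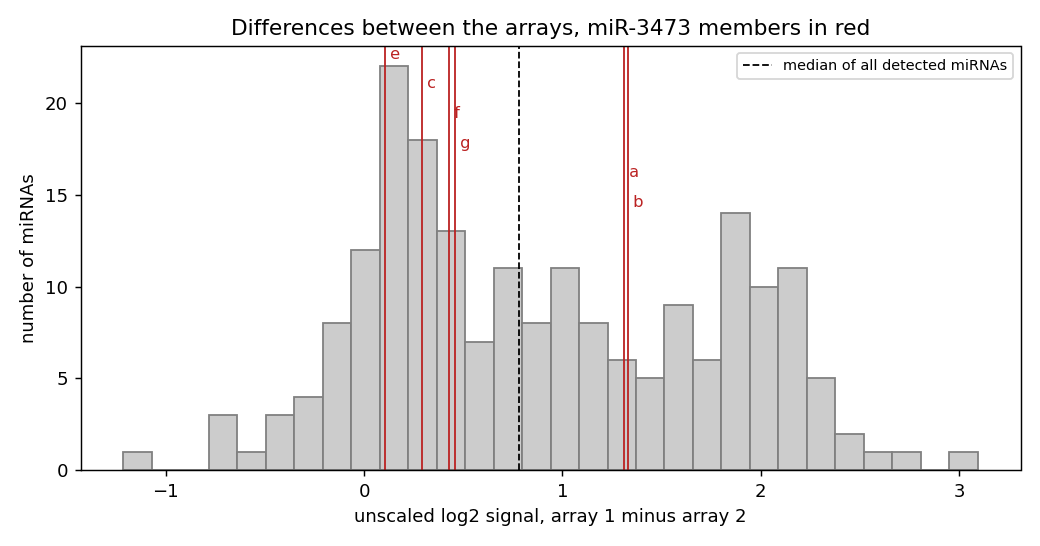
The horizontal axis gives the unscaled log2 signal on array 1 minus that on array 2, and the vertical axis the number of miRNAs among the 201 detected on both arrays, with the 6 detected members as red lines and the median of all as a dashed line. miR-3473a and miR-3473b lie above the median of 0.78, and the other 4 below it.

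Which array a member was higher on depended on the scaling. Aligning the arrays at the 75th percentile of the detected miRNAs removed 1.71 log2 units, after which all 6 were higher on array 2. The median difference over the 201 detected miRNAs was then -0.93, so the array as a whole lay the same way. The scaled log2 signals were 10.10 on array 1 and 10.48 on array 2 for miR-3473b, with a mean of 10.29 ± 0.27 (SD, n = 2). They were 4.33 and 4.73 for miR-3473a (mean 4.53 ± 0.28) and 5.78 and 7.03 for miR-3473g (6.41 ± 0.89). Means were 3.55 ± 0.91 for miR-3473f and 2.02 ± 1.14 for miR-3473e (SD, n = 2), and miR-3473c had 2.56 on array 1 and 3.98 on array 2. The order of these SDs depended on the scaling. Without scaling the SD was 0.94 for miR-3473b and 0.93 for miR-3473a. It was then 0.33 for miR-3473g, 0.30 for miR-3473f, 0.21 for miR-3473c and 0.07 for miR-3473e. With the percentile taken over all miRNAs, miR-3473b was 0.99 higher on array 1 and 4 of the 6 detected members were higher there, with a median of 0.44 over the 201 miRNAs. With quantile normalization it was 0.48 higher on array 1, as were 2 of the 6, with a median of -0.23 over the 201 miRNAs.

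The miRNAs with the signals nearest to those of miR-3473b on both arrays were miR-1224-5p, miR-466i-5p, miR-6769b-5p, miR-8110 and miR-494-3p. Nearness was the Euclidean distance over the 2 scaled log2 signals, and it ran from 0.78 for miR-1224-5p to 1.99 for miR-494-3p. Their unscaled differences between the arrays were 0.36, 1.55, -0.03, 0.69 and 0.52 in that order. Of the 5, miR-466i-5p was the one that came near the 1.33 of miR-3473b.

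The totals that the scanner files list per miRNA did not always belong to the member they stand beside. For miR-3473b and miR-3473g the listed total was the sum of the member's own detected probes on both arrays, 847 and 337 for miR-3473b and 42.4 and 30.8 for miR-3473g. For miR-3473a on array 2 the own detected probe gave 10.7, and the file lists 44.0, which is that sum plus the 33.3 listed for miR-3472, the detected name before it in alphabetical order. For miR-3473e the own probe gave 2.47 on array 1 and 1.99 on array 2, and the listed 7.28 and 4.05 are these plus the 4.81 and 2.05 listed for miR-3473c. For miR-3473f on array 2 the own probes gave 3.52, and the listed 7.57 holds the 4.05 of miR-3473e as well, which already held miR-3473c. In all 4 of these cases the first probe was not detected, and in the 8 other cases of a detected member it was.

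This turned the direction between the arrays for 2 members. By its own detected probes miR-3473a gave 24.7 on array 1 and 10.7 on array 2, whereas its listed totals were 24.7 and 44.0. miR-3473f gave 5.94 and 3.52 by its own probes and 5.94 and 7.57 by the listed totals. In the authors' deposited table, which holds log2 values on a distribution common to both arrays, miR-3473b had 9.28 on array 1 and 8.93 on array 2. That table lists miR-3473a at 3.76 and 4.01, miR-3473g at 4.46 and 5.41, miR-3473f at 1.84 and 2.35, miR-3473c at 0.45 and 1.78, and miR-3473e at -2.17 and 1.76. It has miR-3473d at its lowest value, -3.32, on both. From high to low, the detected members there run b, g, a, f, c, e on each array. This is their order by own detected probes. By the listed totals of array 2, miR-3473a at 44.0 stood above miR-3473g at 30.8. From which signal the table was made was not tested. In the authors' deposited table miR-3473b is thus the only member higher on array 1. The median of array 1 minus array 2 over the 201 detected miRNAs was -0.27 in that table, so the array as a whole leaned to array 2.

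**Figure D4:**
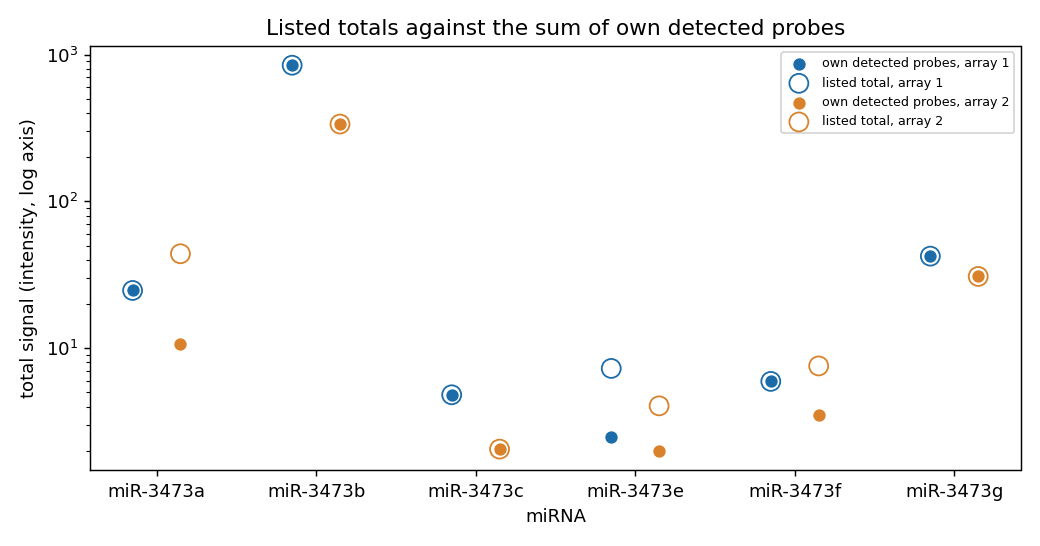
The vertical axis gives total signal in intensity units on a log axis, and the horizontal axis the 6 detected members, with filled points for the sum of a member's own detected probes and open circles for the total listed in the file, on array 1 (blue) and array 2 (orange). The circles leave the points at miR-3473a and miR-3473f on array 2 and at miR-3473e on both arrays.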

How the data were processed

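Per the submitters' processing notes, the scanner output was written by Agilent Feature Extraction (version 10.7.1.1), and the deposited values are linear intensities of spots. Background subtraction and spatial detrending were done within arrays, per the file headers, with no normalization from array to array. The other flags used (detected, outlier, well above background, saturated) are 0 or 1 values, per the file headers. The authors' deposited table holds log2 values, with a median of -3.32 in both columns and the same sorted values in each. Its centring and the origin of that distribution are unknown, and it served as an alternative only. Both samples lay in 1 group by their labels, so no comparison between conditions was made.

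Spots marked as outliers were dropped (1069 for array 1 and 1152 for array 2). Of the 210 spots of the family, 3 were dropped on array 1 and 4 on array 2. Intensities under 1 were set to 1, and log2 values were averaged over spots and then over probes. The main scaling aligned the 75th percentile of the miRNAs detected on both arrays. All members are named, as are array miRNAs with a member's seed or a run of at least 12 bases with miR-3473b, and the 5 nearest to it. miR-3471, miR-706 and the control hur_6 were named after their values were seen. The members, lists and alternatives were chosen with earlier results of these data known. The files give no probe sequences. Python 3.11.15 with numpy 2.4.6 and pandas 2.3.3 and R 4.3.3 with limma 3.58.1 (normexp, offset of 50) were used. On simulated arrays of 1881 miRNAs, the median error of the difference between the arrays was 0.0527 log2 units. This was the only 1 of the 4 checks that tested simulated levels. The others hold by the form of the scaling, or compared the detection flag with its rule in the real data, and all 4 passed. The simulated signals were raised above the measured ones, so levels near background were not tested.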

Additional observations from a re-analysis of the deposited data

How the results depend on the processing

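The count of 6 members detected on both arrays was 6 to 6 when each array was left out in turn, 6 with detection on at least 1 array and 4 with a mean over the negative controls by 3 SD. It was 2 with the majority of spots well above background and 3 with a total over 6 times its error. The mean signal of miR-3473b was 10.10 to 10.48 with each array left out in turn, 9.06 with the listed total signal, 9.06 with the sum of detected probes and 9.10 in the authors' deposited table, all on log2 scales with their own zero. Its unscaled difference between the arrays was 1.27 with normexp background correction. The median difference over the 6 members, 0.44, was 0.98 with the sum of detected probes, 0.65 with the listed total signal, 0.42 with outlier spots kept, 0.37 with the brightest probe and 0.18 with normexp. Of the mean signals of the 6 other members, 6 moved by more than the SD between arrays in the authors' deposited table. The count was 5 with normexp, 5 with the sum of detected probes and 4 with the listed total signal. It was 2 with the brightest probe and 0 with quantile normalization or outlier spots kept. The authors' deposited table, the sum and the listed total have their own zero for these members too. Normexp adds an offset to every intensity, which lifts dim signals most in log2 units. The counts for these 4 settings thus include a change of scale, and they cannot show how stable the members' levels are. No scaling and the percentile over all miRNAs leave the means of the members as they are by construction, but not the SDs. Quantile normalization kept 4 of the 5 nearest miRNAs. No paired analysis was possible because there is 1 group. Signal over background limits what can be said of miR-3473c, miR-3473e, miR-3473f and probe 1 of miR-3473a.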
